A study of Sus scrofa with 4 samples.

Results

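The genes described here are 10 core genes of transforming growth factor beta (TGF-beta) signalling: the ligands TGFB1, TGFB2 and TGFB3, the receptors TGFBR1, TGFBR2 and TGFBR3, the latent binding protein LTBP1, and the signal transducers SMAD2, SMAD3 and SMAD7. They were chosen by name, and 6 of the 10 had a probeset that the platform annotation assigned to them alone, out of 6765 genes named in this way. No probeset bearing the symbol, gene identifier or accession of TGFBR2, LTBP1, SMAD2 or SMAD7 was found in the annotation used here, and these 4 genes were not analysed here. The 6 measured genes had 13 probesets. Each gene is represented by its brightest probeset, the one with the highest mean log2 signal over all arrays, and the other probesets are given beside it.

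TGF-beta is secreted in a latent form, bound to its own propeptide and, through it, to latent binding proteins such as LTBP1 that tether it to the matrix. Once released, the ligand brings the type II receptor TGFBR2 to the type I receptor TGFBR1, a kinase that phosphorylates SMAD2 and SMAD3, which enter the nucleus with SMAD4 and act on target genes. SMAD7 is an inhibitor of this route that the pathway itself induces. In dermal fibroblasts the pathway is known for driving matrix production and the contractile myofibroblast state, and TGFB1 is the isoform most often studied in scarring.

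The cells were fibroblasts grown to confluence in serum-containing medium from wound biopsies of Duroc pigs at 20 weeks, each wound lying on the animal's back. Fibroblasts of shallow wounds (n = 2) were compared with fibroblasts of deep wounds (n = 2), with 1 culture of each depth from each of 2 pigs, and all 4 RNA samples were hybridized to a porcine Affymetrix array. The pigs are called pig 1 and pig 2 here, and the titles give the pairing by sample number, read as the order in which the samples are listed. Cultures of unwounded skin were not analysed here, the passage of the cells was not given in the sources used here, and 2 animals limit what can be said of pigs at large. In such bulk samples, fewer cells that make a transcript and less of it per cell cannot be told apart.

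Signals are MAS5 intensity units, which can be compared for 1 probeset between arrays but not between probesets. Each array had a trimmed mean of 250.1, and an array has no read depth, so the number of arrays limits the precision. Equal trimmed means did not make the arrays alike. The mean signal of the hybridization controls was 2971 (shallow) and 4023 (deep) for pig 1, and 3433 (shallow) and 9014 (deep) for pig 2. It was thus higher on the deep array of each pig, and its part in the differences was not tested. A signal is called below the absent controls where it lay under the brightest of 23 control probesets whose targets are not in the sample. That limit was 14.8 (shallow) and 21.8 (deep) for pig 1, and 13.6 (shallow) and 30.9 (deep) for pig 2. All 9 measured fibroblast markers were above the absent controls on all 4 arrays. All 8 measured epithelial markers were highest on the shallow array of pig 1, where their signals summed to 5759.7 against 169 to 321 on the other arrays, and none was listed at 0. The summed signals of the 4 immune markers ranged from 73.2 to 126, and those of the 7 endothelial markers were 742 on the shallow array of pig 1 and 250.4 to 377 on the others. The actin 3'/5' signal ratio, which rises as RNA degrades or labelling shortens, was 1.96 (shallow) and 3.28 (deep) for pig 1, and 2.41 (shallow) and 6.10 (deep) for pig 2.

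None of the 3 ligands, the receptor TGFBR1 or SMAD3 passed the test for a difference between deep and shallow cultures. The brightest probesets of 5 members passed the filter on dim probesets (a mean signal of at least 27.1), and 0 of these 5 passed an adjusted p of 0.05 in limma with the pig as a block, where 0.398% of all 5272 named genes tested did. At an unadjusted p under 0.05 the count was also 0 of 5, against 7.40% of named genes higher and 8.06% lower in deep. The mean difference of all 5 was below 0, with a median of -0.20 log2 units against -0.04 over all named genes, of which 53.6% were below 0. SMAD3, at -0.05, was 0.02 when each array was centred on its median, so its sign depended on the scaling. Only TGFB1 had both deep arrays below both shallow arrays, 1 of 5 against 28.4% of named genes, a share near the background and so no result about the members. A difference of at least 1.5-fold in the same direction in both pigs was found for 0 of the 5, against 5.84% of named genes higher and 5.86% lower. The counts and the direction of the median depended on single arrays. The members' median was 0.14 or 0.03 when pig 2's shallow or deep array was left out, each with 3 of the 5 higher in deep, and -0.42 or -0.54 when pig 1's shallow or deep array was. With pig 1's shallow array left out, all 5 had both deep arrays below the remaining shallow one, as 38.6% of named genes did. With a deep array left out, the remaining one was below both shallow arrays for 3 of the 5 (pig 1 left out) or 2 (pig 2 left out), against 40.1% and 41.2% of named genes.

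**Figure D1:**
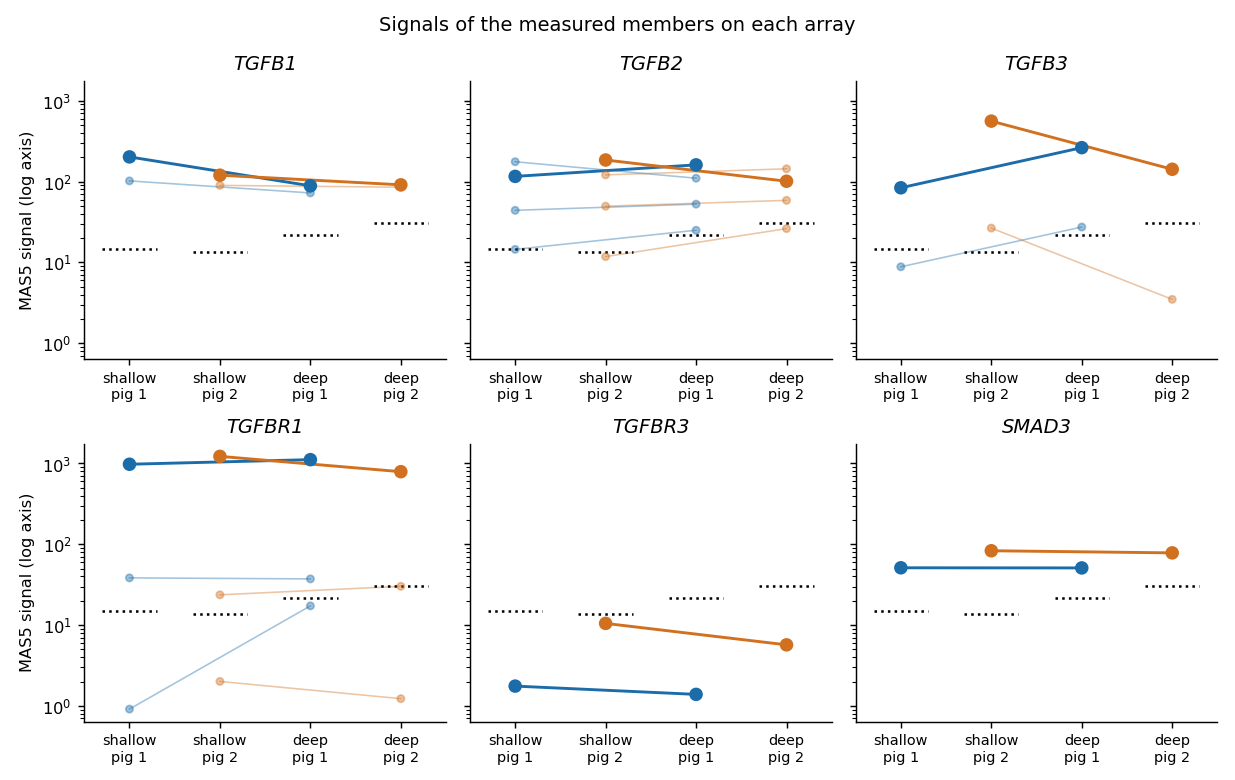
MAS5 signal (log axis) of the 6 measured members on the 4 arrays, with large points for the brightest probeset, small pale points for the others, blue for pig 1, orange for pig 2, lines joining the shallow and deep array of a pig, and a dotted bar at the highest absent control of each array. TGFB1 was lower on the deep array in both pigs, TGFB3 moved in opposite directions, and TGFBR3 lay under the dotted bar on all 4 arrays.

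TGFB1 (gene 397078) had a signal of 202 in the shallow culture of pig 1 and 120.0 in that of pig 2, against 88.7 and 91.2 in the deep cultures. The groups did not overlap, and the deep cultures were nearly equal while the shallow ones were spread. The group means were 161 ± 58.1 in shallow and 90.0 ± 1.77 in deep (SD, n = 2). In log2 units the deep culture was lower by 1.19 in pig 1 and by 0.40 in pig 2, that is 2.28-fold and 1.32-fold. The mean difference was -0.79 ± 0.36 (SE; limma, unadjusted p = 0.0601, adjusted p = 0.386), with a 95% interval from -1.63 to 0.04. As a fold this interval runs from 3.09-fold lower to 1.03-fold higher in deep.

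The other TGFB1 probeset was lower in the deep culture of both pigs as well, but by less. Its signals were 102 and 89.8 in shallow and 72.4 and 85.2 in deep, a difference of -0.50 in pig 1 and -0.08 in pig 2 (mean -0.29 ± 0.36, adjusted p = 0.785). The size of the TGFB1 difference rested on the shallow array of pig 1, the array on which the epithelial markers were high. Without it the difference was -0.42, and without the shallow array of pig 2 it was -1.17. The part of the epithelial signal in the TGFB1 values was not tested. Among named genes, 85.3% had a smaller absolute difference than TGFB1, which places it in the upper part of an unselected range and not at its edge.

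The 3 named genes whose 4 log2 signals, each taken relative to its own mean, lay closest to TGFB1 were PINX1, MRPL51 and SNRPA1, among 5271 searched. Their Euclidean distances from TGFB1 over the 4 arrays were 0.05, 0.05 and 0.06 log2 units. All 3 shared a high shallow signal in pig 1, an intermediate one in pig 2 and low, like signals in both deep cultures. PINX1, for example, had signals of 335 and 204 in shallow and 149 and 159 in deep. With 4 arrays many genes can take a like pattern, and the adjusted p of these 3 lay between 0.279 and 0.364.

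TGFB3 (gene 397400), an isoform studied for wound repair with less scarring, had the widest spread among the 5 tested members and opposite differences in the pigs. Its signals were 83.8 in shallow and 263 in deep in pig 1, but 560 in shallow and 142 in deep in pig 2. The deep culture was thus 3.14-fold higher in pig 1 and 3.96-fold lower in pig 2, and the groups overlapped fully, with both deep values between the shallow ones. In log2 units the pair differences were 1.65 and -1.98, and their mean of -0.17 ± 0.71 (limma, adjusted p = 0.950) had a 95% interval from -1.82 to 1.48.

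The gap between the pairs, pig 2 minus pig 1, was -3.63 log2 units for TGFB3, and 99.4% of named genes had a smaller one. A difference of at least 1.5-fold in opposite directions in the pairs was found for 1 of the 5 members, TGFB3, and for 2.48% of named genes. The other TGFB3 probeset was too dim to be tested, yet its signals followed the same order within each pig. They were 8.83 and 27.4 in shallow and deep of pig 1, and 26.6 and 3.49 in pig 2, with the shallow value of pig 1 and the deep value of pig 2 below the absent controls. Both probesets were read from the same 4 RNA samples and are not a repeat of the experiment.

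The TGFB3 result depended on single arrays. Without the shallow array of pig 1 the difference was -1.54 (limma, adjusted p = 0.0292), past the threshold, and without that of pig 2 it was 1.20 (adjusted p = 0.0658). Without the deep array of pig 1 or of pig 2 it was -0.61 or 0.28. These fits leave a lone array at 1 depth, which is assumed to vary like the others. They also have no pig block, so no call is read from them. The low shallow value was on the array with the high epithelial markers, and the low deep value was on the array with the highest actin ratio; the part of either in the result was not tested.

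TGFB2 (gene 397084) had 4 probesets, and they disagreed. The brightest had signals of 116 and 185 in shallow and 161 and 101 in deep, higher in the deep culture of pig 1 by 0.47 and lower in that of pig 2 by 0.87 in log2 units. The mean difference was -0.20 ± 0.40 (limma, adjusted p = 0.868; 95% interval -1.13 to 0.73). A probeset of almost the same mean log2 signal, 7.08 against 7.10, went the other way in each pig: 176 to 110.1 in pig 1, a difference of -0.68, and 121 to 144 in pig 2, a difference of 0.26. Which of the pair is called the brightest therefore decides the sign given to each pig.

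The remaining TGFB2 probesets were higher in the deep culture of both pigs. The brighter of them had 44.1 and 49.6 in shallow and 52.6 and 58.6 in deep (0.25 ± 0.41, adjusted p = 0.834). The dimmer had 14.5 and 11.8 in shallow and 25.0 and 26.2 in deep, but 3 of these 4 signals were below the absent controls and it was not tested. Over the 4 probesets the mean difference was 0.20, opposite in sign to that of the brightest. These data therefore give no direction for TGFB2.

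TGFBR1 (gene 396665), the type I receptor kinase, varied by at most 1.55-fold between arrays by its brightest probeset. Its brightest probeset had signals of 978 and 1224 in shallow and 1115 and 791 in deep, with group means of 1101 ± 175 and 953 ± 229 that overlapped. The deep culture was 1.14-fold higher in pig 1 and 1.55-fold lower in pig 2. The mean difference of -0.22 ± 0.30 log2 units (limma, adjusted p = 0.799) had a 95% interval from -0.91 to 0.47, so a change beyond 1.89-fold down or 1.39-fold up lay outside it. Of the other TGFBR1 probesets, 1 was tested and differed by 0.16 ± 0.47 (adjusted p = 0.919), with signals of 23.7 to 38.4. The last was below the absent controls on all 4 arrays, at 0.914 to 17.3.

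TGFBR3 (gene 397512), betaglycan, a co-receptor that presents ligand to the signalling receptors, was below the absent controls on every array. Its single probeset had 1.76 and 10.5 in shallow and 1.39 and 5.70 in deep. It did not pass the filter, was not tested, and no fold is given, because neither group gave a signal above background.

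SMAD3 (gene 397260), the transducer that binds DNA together with SMAD4, was higher in pig 2 than in pig 1 at both depths, with a small difference between the depths. Its signals were 51.2 in shallow and 51.0 in deep in pig 1, and 83.2 and 78.3 in pig 2. The depth difference was -0.01 in pig 1 and -0.09 in pig 2 (mean -0.05 ± 0.38, limma, adjusted p = 0.974; 95% interval -0.93 to 0.84). The culture of pig 2 was above that of pig 1 by 0.70 log2 units in shallow and by 0.62 in deep, values given without a test. Only 7.83% of named genes had a smaller absolute depth difference.

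**Figure D2:**
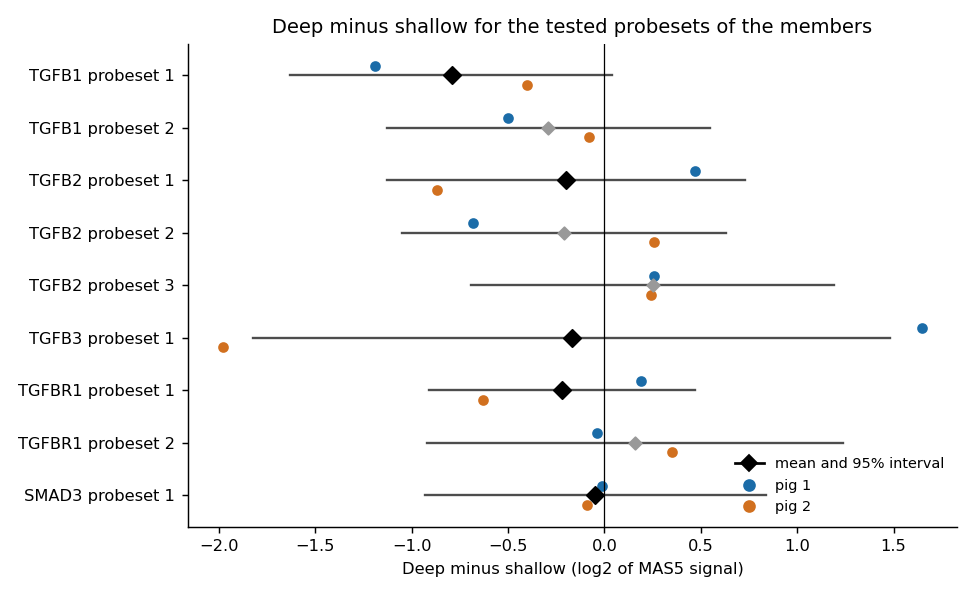
Deep minus shallow in log2 units for the 9 tested probesets of the members, numbered from the brightest within each gene, with the mean of the pigs as a diamond (black for the brightest probeset), its 95% interval from limma as a line, and pig 1 in blue and pig 2 in orange. All 9 intervals cross 0, that of TGFB1 by the least (upper end 0.04), and the TGFB3 pigs lie at 1.65 and -1.98.

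The members had no common course across the animals. TGFB2, TGFB3 and TGFBR1 were higher in deep in pig 1 and lower in deep in pig 2 by their brightest probesets, 3 of 5 members against 16.3% of named genes, and for TGFB2 the probeset of nearly equal brightness had the opposite order. In either order, opposite signs in the pigs were found for 36.0% of named genes. The difference of differences, pig 2 minus pig 1, was -1.34 for TGFB2, -3.63 for TGFB3 and -0.82 for TGFBR1, against 0.79 for TGFB1 and -0.08 for SMAD3. With 1 culture of each depth per pig, an animal difference and a difference between single cultures cannot be told apart.

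**Figure D3:**
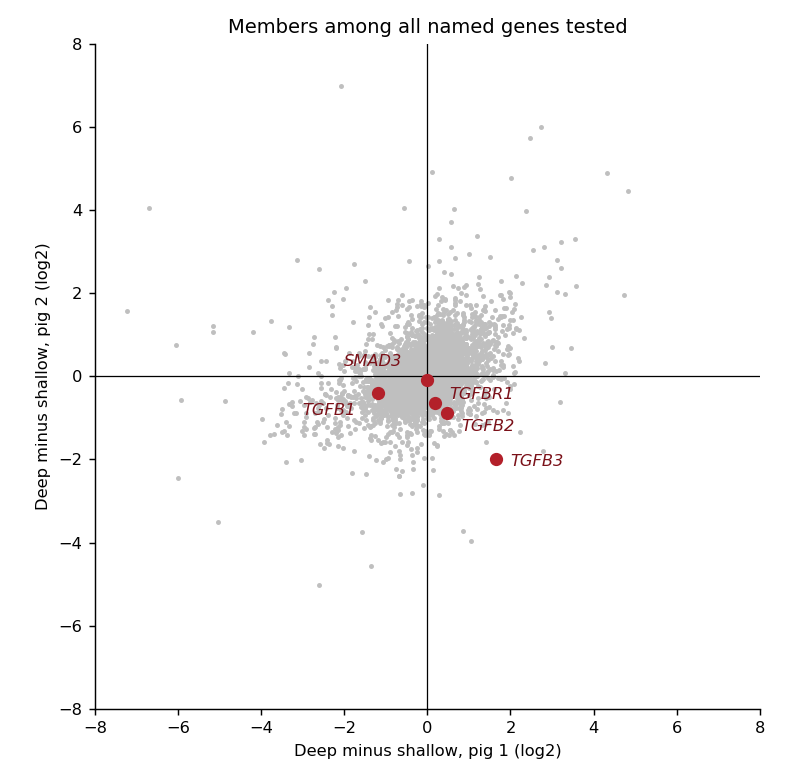
Deep minus shallow in pig 1 (x axis) against pig 2 (y axis), both in log2 units, for 5272 named genes by their brightest probeset (grey) and the 5 tested members (red). TGFB3 lies at the rim of the quadrant that is higher in pig 1 and lower in pig 2, TGFB1 lies in the quadrant that is lower in both, and SMAD3 lies near the origin.

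The other genes of the pathway were taken from 5 lists of its parts, of which 47 genes in all were tested. Over these lists 0 genes passed an adjusted p of 0.05 in limma, against 0.398% of named genes. At an unadjusted p under 0.05, 15 were higher and 1 was lower, against 7.40% and 8.06% of named genes. Both deep arrays were above both shallow arrays for 25 of the 47 (23.7% of named genes) and below for 3 (28.4%). Some alternative fits did call genes of these lists. ASPN, MMP2 and CDKN1A passed with the filter at the 60th percentile, as 2.24% of named genes did. ASPN also passed with quantile normalization (0.759% of named genes) and with signals under 16 set to 16 (0.588%). Fits without the shallow array of either pig called genes of these lists as well. They leave a lone shallow array and have no pig block, so their calls are not listed. The higher genes were mostly in the lists of latency and activation proteins and of target genes. Both lists hold matrix genes that are abundant in fibroblasts, among others, and the part of this in the counts was not tested. The receptor partners and SMAD regulators lay around 0.

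The list of latency and activation proteins held 11 tested genes of 23, with a median difference of 0.45 log2 units. Both deep arrays were above both shallow ones for 8 of the 11 (23.7% of named genes), and 5 were higher at an unadjusted p under 0.05 (7.40% of named genes). ASPN, asporin, a small proteoglycan that binds TGF-beta1, had signals of 37.2 and 19.7 in shallow and 246 and 1257 in deep (4.36 ± 0.67, limma, adjusted p = 0.0527). BGN, biglycan, another proteoglycan that binds the ligand, had 571 and 254 in shallow and 691 and 1735 in deep (1.52 ± 0.52, adjusted p = 0.247). Its groups did not overlap, and most of the difference came from pig 2, at 6.83-fold against 1.21-fold in pig 1. MMP2, a gelatinase that can release latent TGF-beta, had 774 and 1555 in shallow and 1829 and 3698 in deep, and its ratio was alike in the pigs at 2.36-fold and 2.38-fold (1.25 ± 0.26, adjusted p = 0.0968). FBN1, the microfibril protein to which latent complexes are tethered, had 2581 and 5616 in shallow and 8158 and 9956 in deep (1.24 ± 0.32, adjusted p = 0.148). With quantile normalization 5 of the 11 had both deep arrays above both shallow ones, against 22.7% of named genes. With 1 array left out, those higher at an unadjusted p under 0.05 numbered 2 (pig 1) and 6 (pig 2) for a shallow array, and 6 (pig 1) and 1 (pig 2) for a deep one. The shares of named genes were 5.03%, 10.6%, 8.02% and 2.79% in the same order, and the medians of the list were 0.31, 0.92, 0.86 and 0.31. The integrin subunits that take part in activation differed less, from -0.35 for ITGB3 to 0.43 for ITGB5.

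Among target genes induced by TGF-beta in fibroblasts, 15 of 28 listed genes were tested, with a median difference of 0.89. Both deep arrays were above both shallow ones for 12 of the 15 (23.7% of named genes). At an unadjusted p under 0.05, 9 were higher and 0 lower (7.40% and 8.06% of named genes). The cell-cycle inhibitor CDKN1A had 1376 and 2353 in shallow and 3350.5 and 6567 in deep (1.38 ± 0.27, limma, adjusted p = 0.0826). VCAN, the proteoglycan versican, had 86.8 and 139 in shallow and 235 and 247 in deep (1.13 ± 0.33, adjusted p = 0.191). LOX, the collagen cross-linking lysyl oxidase, had 649 and 1289 in shallow and 1991 and 1676 in deep (1.00 ± 0.34, adjusted p = 0.250). COL3A1, a collagen of dermis, had 26.7 and 19.4 in shallow and 47.7 and 44.4 in deep (1.01 ± 0.46, adjusted p = 0.390). These signals were near the limits of the absent controls, 14.8 and 13.6 in shallow and 21.8 and 30.9 in deep. The limits were also higher in deep, so the COL3A1 difference is uncertain. The contractile targets differed by 0.79 ± 0.30 for ACTA2, smooth muscle actin (unadjusted p = 0.0309, adjusted p = 0.302), 0.51 ± 0.29 for the tropomyosin TPM1 and -0.05 for TAGLN, transgelin. The matrix glycoprotein TNC was at -0.27. Several of the listed targets are known to answer to other signals as well.

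The count for the targets depended on the scaling and on arrays. With quantile normalization 8 of the 15 had both deep arrays above both shallow ones (22.7% of named genes), 1 was below, 5 were higher at an unadjusted p under 0.05 (6.83% of named genes) and the median was 0.33. With 1 array left out, the count higher at an unadjusted p under 0.05 changed, as did the share of all named genes. Both were lowest without the deep array of pig 2, where most of the count was lost. The medians were then 0.62 (pig 1) and 0.97 (pig 2) for a shallow array. They were 0.96 (pig 1) and 0.61 (pig 2) for a deep one, the last being the array with the highest actin ratio. In the same order, the remaining deep arrays were above the remaining shallow ones for 12, 13, 12 and 14 of the 15, against 33.4%, 37.4%, 37.9% and 32.6% of named genes. COL1A2 and COL3A1 are both targets and fibroblast markers, so these lists are not separate. The summed signals of the 9 fibroblast markers moved the same way, at 29077 and 34139 in shallow and 46869.8 and 66874 in deep. So did those of the 4 measured smooth muscle and pericyte markers, at 637 and 1125 in shallow and 4675 and 3342 in deep. Most of each sum was ACTG2, smooth muscle gamma actin, with 492 and 717 in shallow and 4269 and 2914 in deep. ACTG2 was higher in deep by 2.57 ± 0.33 (limma, adjusted p = 0.0351). That call did not hold without the pig as a block or without the filter, where 0 probesets were called. CNN1, calponin, differed by 1.29 ± 0.34 (limma, unadjusted p = 0.00510, adjusted p = 0.155). RGS5, a pericyte marker, went opposite ways in the pigs, with 50.7 and 336 in shallow and 187 and 218 in deep. The part of either marker list and of the actin ratio in the target counts was not tested.

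The 8 tested receptor partners lay between -0.13 and 0.31 with a median of 0.03. Of these 8, 0 had an unadjusted p under 0.05 in limma, against 7.40% of named genes higher and 8.06% lower in deep. BAMBI, a decoy receptor that the pathway induces, had 1047 and 1071 in shallow and 1008 and 933 in deep. ENG, endoglin, a co-receptor best known from endothelium, had 46.3 and 71.0 in shallow and 50.4 and 77.8 in deep, again higher in pig 2 at both depths. ACVR2A and BMPR1A, receptors for activins and bone morphogenetic proteins (BMPs), differed by 0.31 ± 0.40 and 0.16 ± 0.27 (limma, adjusted p = 0.789 and 0.845).

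Among the other SMADs and SMAD regulators, 7 genes were tested with a median of -0.04, the same as over all named genes. SMAD1, a transducer of BMP signals, was higher in deep in both pigs, with 339 and 468 in shallow and 505 and 765 in deep (0.64 ± 0.27, limma, unadjusted p = 0.0464, adjusted p = 0.350). SMAD4, the common partner of the receptor-regulated SMADs, had 873 and 1015 in shallow and 977 and 723 in deep. PMEPA1, a TGF-beta-induced inhibitor of SMAD signalling, had 313 and 177 in shallow and 145 and 242 in deep, opposite in the pigs (-0.33 ± 0.41). The repressor TGIF1 and the kinase partner TAB1 differed by 0.48 ± 0.29 and 0.33 ± 0.41 (adjusted p = 0.510 and 0.780).

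On the BMP and activin side 7 genes were tested, with a median of 0.16 that was -0.17 with quantile normalization. ID1, a direct target of BMP and SMAD1 signals, had 3963 and 3773 in shallow and 1707 and 1976 in deep, with nearly equal replicates and no overlap (-1.07 ± 0.27, limma, unadjusted p = 0.00440, adjusted p = 0.145). SMAD1 and ID1 thus had opposite signs. INHBA, the activin A subunit, had 162 and 128 in shallow and 112 and 99.8 in deep (-0.45 ± 0.33), and BMP4 had 293 and 630.4 in shallow and 533 and 698 in deep (0.51 ± 0.30). FST, follistatin, which binds activin, had 3496 on the shallow array of pig 1 and 85.7 to 199.7 on the others, the same array on which the epithelial markers were high, and the part of that signal in its difference of -1.97 ± 1.17 was not tested.

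**Figure D4:**
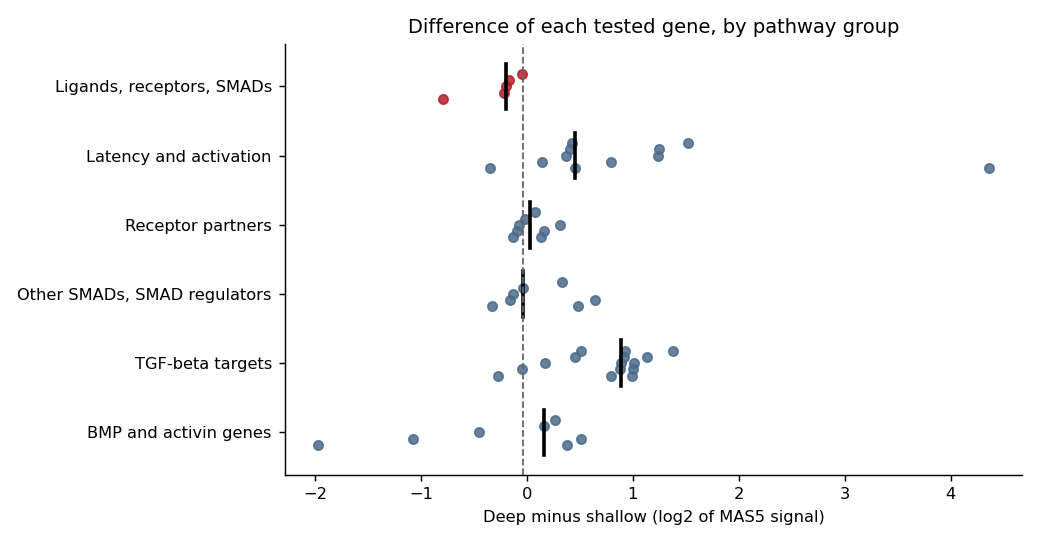
Deep minus shallow in log2 units for each tested gene of the members (red) and of the 5 other pathway lists (blue), with a black bar at the median of each list and a dashed line at the median of all named genes, -0.04. The medians are -0.20 for the members, 0.45 for latency and activation, 0.03 for receptor partners, -0.04 for SMAD regulators, 0.89 for targets and 0.16 for BMP and activin genes.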

How the data were processed

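Total RNA of 4 fibroblast cultures was measured on a porcine Affymetrix array. The authors deposited linear MAS5 intensities, 1 per probeset and array; the submitters' processing notes name MAS5 and GCOS 1.0. The sources used here give no detection calls and no target for the array scaling. The 124 control probesets were left out. Intensities under 1 were set to 1 (2547 of 95996) and taken to log2, and the 14399 of 23999 probesets at or above the 40th percentile of mean log2 signal were kept. Deep was compared with shallow in limma 3.58.1 (lmFit, eBayes; R 4.3.3). The model had the pig as a block, a mean-variance trend and Benjamini-Hochberg adjustment over the 14399 probesets. Unless an alternative fit is named, p-values and adjusted p-values are from this fit. The model was also run on simulated data that had a pig effect built in. The 2 arrays of a pig showed no such likeness in these data (a correlation of -0.01, given below). That run therefore cannot show whether the block is apt here. The model leaves 1 residual degree of freedom, to which moderation adds 6.88. The fits with 1 array left out had no pig block, so they changed the arrays and the model together. Intervals are 95% intervals of the moderated fit. The absent controls are the Tag and TrpnX probesets.

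The pairing comes from the study's description of shallow and deep wounds on the same pig. Within a pig, the 2 arrays' deviations from the means of their depths correlated at -0.01 across probesets. Genes were named from 10069 probesets with 1 symbol; 198 had several and 13732 none. All members were named, with up to 4 genes of each other list by absolute difference. The integrin subunits, ACTA2, TPM1, TAGLN, TNC and SMAD4 were added after their values were seen. Members, lists and tests were chosen with earlier results of these data known. Alternatives changed the block, filter, scaling, floor, trend, probeset rule and arrays used.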

Additional observations from a re-analysis of the deposited data

How the results depend on the processing

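TGFB1 stayed below 0 and short of the threshold in every alternative fit, from -0.42 to -1.17 on the log2 scale. SMAD3 turned to 0.02 with arrays centred on their medians and, by its dimness, was not tested with the filter at the 60th percentile. With the mean over a gene's probesets TGFB2 was 0.20 and TGFBR1 0.55, the latter through a probeset below the absent controls on all arrays. With 1 array left out the differences ranged from -0.40 to 0.30 for SMAD3, -0.54 to 0.14 for TGFB2, -1.54 to 1.20 for TGFB3 and -0.47 to 0.03 for TGFBR1. The number of members called ranged from 0 to 1, the 1 being TGFB3 without the shallow array of pig 1, and the number with all deep arrays below all shallow ones from 1 to 5. Of 59 member values under alternatives, 10 changed sign. Over all probesets tested, 49 were called as reported, 0 without the pig as a replicate block (1885 at an unadjusted p under 0.05 in limma), 0 without the filter (2246), 217 with the filter at the 60th percentile, 5 with arrays centred on their medians, 96 with quantile normalization, 3 without the mean-variance trend and 0 to 1597 with 1 array left out; the causes were not tested. With all arrays kept, 0 members were called both with and without the pig as a block. The TGFB3 call came from a fit with 1 array left out and no block. The part of the block in that call was not tested. Signals near the absent controls limit TGFBR3 and the dim probesets of TGFB2, TGFB3 and TGFBR1.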
